A study of Mus musculus with 2 samples.

Results

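The transcripts described here are the small nucleolar RNAs (snoRNAs) and the noncoding transcripts that host them, in 1 library of shLuc R1 ES cells and 1 library of shKdm5b R1 ES cells. Their RefSeq entries were chosen by symbol (*Snora* or *Snord* followed by a number, *Snhg* followed by a number, and *Gas5*) and by a read count of at least 10 in either library. Of 27405 entries in the deposited tables, 114 matched by symbol and 90 of these reached 10 reads. The 90 comprised 48 box C/D and 31 box H/ACA snoRNA entries, 9 *Snhg* entries with *Gas5*, and *Snord123*, whose entry spans 6160 bases and was therefore kept apart from the snoRNAs. Because the read count chose the members, an entry with reads in only 1 library could pass, so the values below are a description of these libraries.

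R1 ES cells are a mouse embryonic stem cell line. Both libraries were made from polyadenylated RNA of cells cultured for 72 h in low attachment dishes without LIF, after growth on irradiated embryonic fibroblasts with LIF, which keeps ES cells self-renewing. The shKdm5b cells carried a short hairpin RNA against *Kdm5b*, which encodes a demethylase of histone H3 lysine 4, and the shLuc cells carried a control hairpin against luciferase. Each condition has 1 library, so no difference below has a replicate check, no test was made, and the condition and the library cannot be told apart.

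snoRNAs are short RNAs of the nucleolus that guide the chemical modification of ribosomal and spliceosomal RNA. Box C/D snoRNAs bind fibrillarin and direct 2'-O-methylation, and box H/ACA snoRNAs bind dyskerin and direct pseudouridylation. Most mammalian snoRNAs are cut out of introns of longer transcripts after splicing, and the hosts are often genes for ribosomal proteins or for other proteins of the translation machinery. Other hosts, the *Snhg* genes and *Gas5*, encode no known conserved protein in their exons, and several of their spliced RNAs are short-lived because translation triggers their decay. A mature snoRNA has no poly(A) tail, whereas the spliced host transcript has one.

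The sequences of 8 snoRNAs are shown to represent entries with lower and with higher levels in shKdm5b cells. They were read from the GENCODE M21 transcripts (build GRCm38) in 5′ to 3′ direction as DNA letters, with the boxes that bind the core proteins in capitals. In box C/D snoRNAs the capitals mark box C (ATGATGA or GTGATGA with at most 1 mismatch, within the first 25 bases) and box D (the last CTGA, in the 3′ part). In box H/ACA snoRNAs they mark box H (ANANNA nearest the middle) and ACA, 2 to 4 bases before the 3′ end. The first 4 had the lowest ratios of shKdm5b to shLuc cells among well covered snoRNAs, and the last 4 had log2 ratios above 0, with *Snord65* alone past 1.5-fold.
Snora64: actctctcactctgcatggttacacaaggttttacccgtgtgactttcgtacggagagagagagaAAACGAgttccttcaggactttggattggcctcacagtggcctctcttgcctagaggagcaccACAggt
Snord33: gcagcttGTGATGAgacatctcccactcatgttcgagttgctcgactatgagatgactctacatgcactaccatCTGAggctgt
Snord96a: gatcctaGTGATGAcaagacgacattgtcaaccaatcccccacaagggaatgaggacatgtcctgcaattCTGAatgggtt
Snord52: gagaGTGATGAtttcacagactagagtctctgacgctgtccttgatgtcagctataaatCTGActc
Snora65: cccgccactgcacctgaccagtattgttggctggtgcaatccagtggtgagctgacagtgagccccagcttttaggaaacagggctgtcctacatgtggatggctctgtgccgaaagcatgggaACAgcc
Snord22: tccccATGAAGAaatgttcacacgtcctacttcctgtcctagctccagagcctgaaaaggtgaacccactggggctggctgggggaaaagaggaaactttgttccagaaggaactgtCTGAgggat
Snord47: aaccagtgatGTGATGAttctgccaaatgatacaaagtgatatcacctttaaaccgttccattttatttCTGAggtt
Snord65: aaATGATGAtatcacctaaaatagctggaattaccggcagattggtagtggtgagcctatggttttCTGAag

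In GRCm38, *Snora64* lies at chr17:24720772-24720905 (plus strand), *Snord33* at chr7:45126864-45126947 (minus strand), *Snord96a* at chr11:48802032-48802112 (plus strand) and *Snord52* at chr17:34950952-34951017 (minus strand). *Snora65* lies at chr2:32963291-32963420, *Snord22* at chr19:8725866-8725991, *Snord47* at chr1:161038082-161038158 and *Snord65* at chr11:62604515-62604586, all on the plus strand. The reads were aligned to mm8 and the deposited tables hold no coordinates, so these positions place the RNAs and not the reads. The boxes were searched on the RNA strand of 77 of the 79 snoRNA entries. Box C was found in 43 of 47 box C/D snoRNAs and in 0 of 30 box H/ACA snoRNAs, and box D in 46 of 47 and 9 of 30. ACA was found in 28 of 30 box H/ACA snoRNAs and in 2 of 47 box C/D snoRNAs. The looser box H pattern was found in 28 of 30 and in 19 of 47. No match to it lay in the middle of *Snora65*. The entries of the deposited tables were shorter than the GENCODE sequences for 65 of the 77 and longer for 4. The printed *Snora64*, for example, has 134 bases and its entry has 117.

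The library totals were 78172698 aligned reads in shLuc and 72702698 in shKdm5b cells, each read 50 bases long. Reads on the plus strand made up 51.5% and 52.7%. The shLuc reads had 25736755 distinct start positions (32.9% of the reads) and the shKdm5b reads 14639660 (20.1%), so the shKdm5b library held more reads that share a start. The counting intervals given below treat reads as independent and cover counting error only, and the part of repeated starts in the snoRNA values was not tested. *Kdm5b*, the targeted gene, had 51378 reads (104 RPKM) in shLuc and 1377 reads (3.01 RPKM) in shKdm5b cells. Of 8 ES cell markers, all were above 1 RPKM in both libraries, 2 were lower and 1 was higher by over 1.5-fold (*Pou5f1* and *Esrrb*, log2 ratios -1.76 and -0.96, and *Dppa5a*, 0.59). Of 8 fibroblast markers, only *Thy1* was above 1 RPKM in both libraries. *Postn*, *Lum* and *Col3a1* were each below 0.1 RPKM, and the summed level of the 8 was 5.14 RPKM in shLuc and 5.68 RPKM in shKdm5b cells. In such bulk RNA, fewer cells of a type and less RNA per cell cannot be told apart.

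snoRNA entries had fewer reads in shKdm5b than in shLuc cells. The level of an entry is given as RPKM, that is, the reads on an entry scaled by its length and by the library size. Differences are log2 ratios of shKdm5b to shLuc after adding 0.1 to each RPKM, and an entry past a 1.5-fold ratio is called lower or higher. Of the 79 snoRNA entries, 52 (65.8%) were lower, 3 were higher and 24 lay between, with a median log2 ratio of -1.11. Over all 20472 entries with 10 or more reads, 31.3% were lower and 14.6% were higher, with a median of -0.22. Over 6005 other entries of at least 300 bases with no more reads than the best covered snoRNA (326), 30.2% were lower and 12.2% higher, with a median of -0.24. Their median level in shLuc cells was 0.31 RPKM, against 5.01 RPKM for snoRNA entries. The added 0.1 thus shrinks their ratios more, and the 2 sets are not alike in this. The 79 entries together had 4148 reads in shLuc and 2384 in shKdm5b cells, 61.8% of the shLuc level relative to library size (log2 ratio -0.69, 95% counting interval -0.77 to -0.62).

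Most other short entries were also lower, but their summed reads were not. This set holds 72 entries under 300 bases without a *Snora*, *Snord*, *Snhg* or *Gas5* symbol. Most are microRNA entries, and *Scarna10* and *Scarna13*, guide RNAs of Cajal bodies, are among them. Of the 72, 62.5% were lower and 26.4% were higher, with a median of -1.21. Together they had 14622 reads in shLuc and 21259 in shKdm5b cells, 156% of the shLuc level relative to library size (log2 ratio 0.64). The best covered entry held 7162 of the shKdm5b reads, and no entry exceeded 2287 reads in shLuc cells. The sum thus depends much on that entry. The share of snoRNA entries that were lower is near that of these other short entries, and no test of a difference between both sets was made. The share of entries that were higher was 3.80% among snoRNAs. In the next length classes the direction was the opposite, with 46 lower and 91 higher among 196 other entries of 300 to under 500 bases and 256 lower and 475 higher among 1311 entries of 500 to under 1000 bases.

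**Figure D1:**
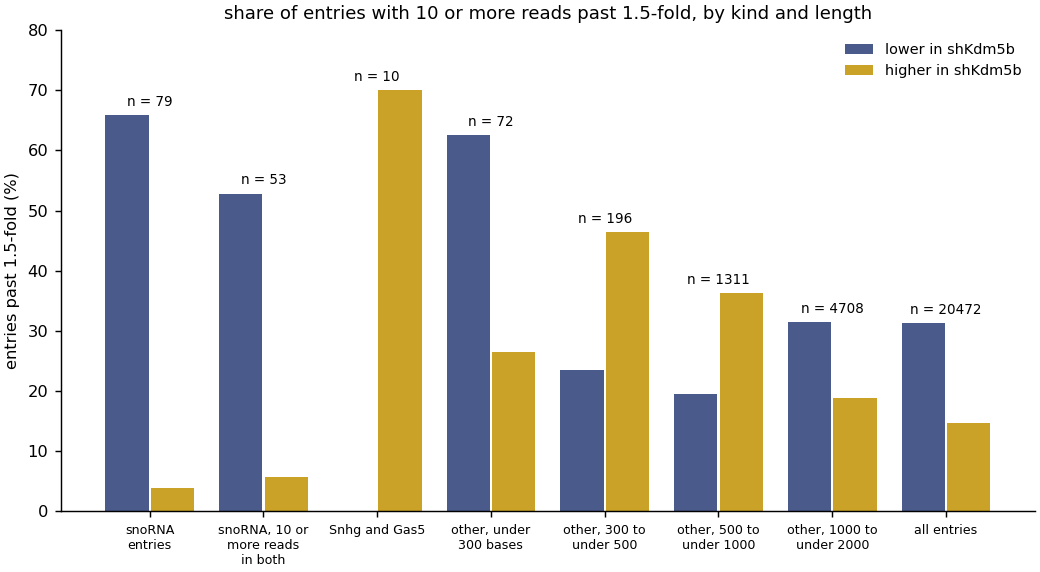
Bars give the percentage of entries with 10 or more reads in either library that were lower (blue) or higher (yellow) in shKdm5b than in shLuc cells by over 1.5-fold, with the number of entries above each pair. snoRNA entries and other entries under 300 bases were mostly lower (65.8% and 62.5%), while *Snhg* and *Gas5* entries and other entries of 300 to under 1000 bases were more often higher.

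Few snoRNA entries were well covered. The median entry had 34 reads in shLuc and 16 in shKdm5b cells, and the highest had 249 and 326. All 79 had at least 10 reads in shLuc cells, and 26 reached 10 reads there alone, whereas 0 reached 10 reads in shKdm5b cells alone. Of all 20472 entries with 10 or more reads, 894 reached them in shLuc alone and 356 in shKdm5b alone. Of the 72 other entries under 300 bases, 28 and 4 did, so passing in shLuc alone was not particular to snoRNAs. Among the 53 with 10 or more reads in both libraries, 28 were lower and 3 were higher, with a median of -0.61. Among the 30 with 50 or more reads in the higher library, 20 were lower and 1 was higher, with a median of -1.32. Shares over all entries or over other short entries are not given here under either of these filters. The exact 95% counting interval of the read ratio lay wholly beyond 1.5-fold for 32 lower entries and 1 higher entry, and over all 20472 entries it did so for 25.7% and 11.3%. It covered equal levels for 29 of the 79. The entries just inside the minimum were *Snord53* and *Snord58b* with 10 reads in shLuc cells and 2 and 6 in shKdm5b cells, and the nearest outside was *Snora15* with 7 and 8.

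Entries of both snoRNA classes were lower. The libraries hold polyadenylated RNA and a mature snoRNA has no poly(A) tail, so the levels below are reads on an entry. Reads of a mature snoRNA and of an unspliced host or a host exon were not separated. Of 48 box C/D entries, 32 were lower and 2 higher (median -0.80), and of 31 box H/ACA entries, 20 were lower and 1 higher (median -1.39). The summed box C/D reads were 2528 in shLuc and 1539 in shKdm5b cells, and the summed box H/ACA reads 1620 and 845. Relative to library size this is 65.5% of the shLuc level for box C/D entries (log2 ratio -0.61, interval -0.70 to -0.52) and 56.1% for box H/ACA entries (-0.83, interval -0.96 to -0.71). These intervals cover counting error alone, and the difference between the classes was not tested.

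**Figure D2:**
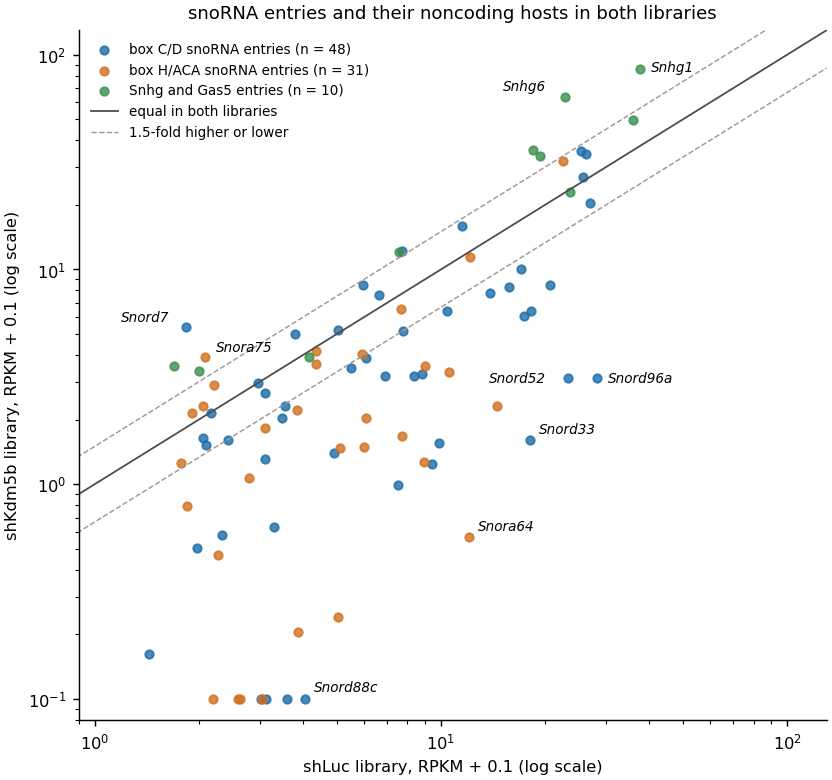
Each point is 1 entry, with its level (RPKM + 0.1, log axes) in shLuc cells on the horizontal axis and in shKdm5b cells on the vertical axis. Most of the 48 box C/D (blue) and 31 box H/ACA (orange) entries lie below the line of equal levels, the 8 entries with 0 reads in shKdm5b cells lie on the bottom row, and 7 of the 10 *Snhg* and *Gas5* entries (green) lie above the upper 1.5-fold line.

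The largest difference among the well covered snoRNAs was that of *Snora64*, a box H/ACA snoRNA within the gene of ribosomal protein S2. It had 109 reads (11.9 RPKM) in shLuc and 4 reads (0.47 RPKM) in shKdm5b cells, 25.3-fold lower (log2 ratio -4.40, interval -6.56 to -3.27). *Snord33*, a box C/D snoRNA hosted by *Rpl13a*, had 115 reads (17.9 RPKM) and 9 reads (1.51 RPKM), 11.9-fold lower (log2 ratio -3.49, interval -4.74 to -2.60). *Snord96a* is hosted by *Gnb2l1*, the gene of the ribosome-bound scaffold protein RACK1. It had 169 reads (28.1 RPKM), the highest RPKM of any snoRNA entry in shLuc cells, and 17 reads (3.04 RPKM), 9.25-fold lower (log2 ratio -3.17, interval -4.02 to -2.49). *Snord52*, hosted by the noncoding transcript *1110038B12Rik*, had 107 reads (23.2 RPKM) and 13 reads (3.03 RPKM), 7.65-fold lower (log2 ratio -2.90, interval -3.89 to -2.10). None of these 4 intervals reached the 1.5-fold line.

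The next in order were 3 box H/ACA snoRNAs and *Snord1a*. *Snora70*, from *Rpl10*, had 89 reads in shLuc and 11 in shKdm5b cells (log2 ratio -2.81). *Snord1a*, from *1810032O08Rik* (current symbol *Snhg16*), had 58 and 8 reads (-2.67). *Snora61*, from *Snhg12*, had 70 and 10 reads (-2.65), and its entry holds 62 of the 130 bases of the RNA. *Snora43*, from *Snhg7*, had 83 and 16 reads (-2.20). The intervals of these 4 ended at -1.49 or lower on the log2 scale, so each was lower by more than 1.5-fold within counting error.

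8 snoRNA entries had reads in shLuc cells and 0 reads in shKdm5b cells, and 0 had the reverse. Over all entries with 10 or more reads, 0.752% had 0 reads in shKdm5b cells and 0.083% had 0 reads in shLuc cells. Among the less covered sets described above, 7 of the 72 other entries under 300 bases and 139 of the 6005 longer entries had 0 reads in shKdm5b cells, so such entries were not particular to snoRNAs. Among box C/D entries these were *Snord88c* (26 reads in shLuc cells), *Snord88a* (17 reads), *Snord45b* (12 reads) and *Snord43* (11 reads). Among box H/ACA entries they were *Snora62* (25 reads), *Snora5c* and *Snora69* (20 reads each) and *Snora20* (14 reads). With 0 set to a floor of 3 reads and the shLuc count taken as exact, *Snord88c* was 8.06-fold lower and *Snora62* 7.75-fold lower. The other values on this floor lay between 3.41-fold for *Snord43* and 6.20-fold for *Snora5c* and *Snora69*. The counting intervals also cover error in the shLuc count and allow smaller falls. They ended at log2 ratios of -2.61 for *Snord88c*, -2.55 for *Snora62* and -1.22 for *Snord43*. Of these 8, *Snord43* and *Snord45b* have entries of 48 and 44 bases, shorter than the reads. All 5 snoRNA entries shorter than 50 bases were lower.

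**Figure D3:**
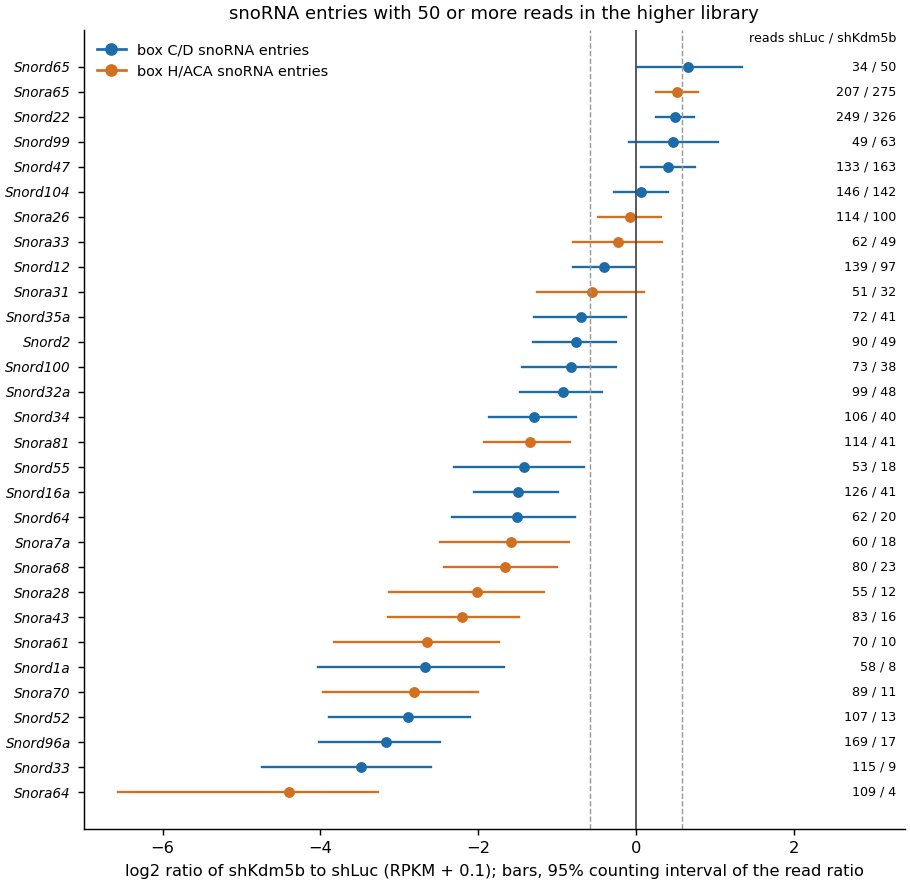
The 30 snoRNA entries with 50 or more reads in the higher library are ordered by log2 ratio of shKdm5b to shLuc on the horizontal axis, with the reads in both libraries at the right. Points are ratios of RPKM + 0.1, bars are exact 95% counting intervals of the read ratio without the 0.1, and dashed lines mark 1.5-fold. The ratios run from -4.40 for *Snora64*, followed by -3.49 for *Snord33*, to 0.65 for *Snord65*, with 6 above 0.

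The 4 snoRNA entries with the most reads over both libraries were not lower. *Snord22*, needed for the maturation of 18S ribosomal RNA, had the most reads, 249 (25.3 RPKM) in shLuc and 326 (35.6 RPKM) in shKdm5b cells (log2 ratio 0.49, interval 0.25 to 0.74). *Snora65*, within *Rpl12*, had 207 and 275 reads (22.4 and 32.1 RPKM, log2 ratio 0.51, interval 0.25 to 0.78). *Snord47*, within *Gas5*, had 133 and 163 reads (26.2 and 34.5 RPKM, log2 ratio 0.40, interval 0.06 to 0.74). These 3 were above equal levels within counting error but not past 1.5-fold. After a correction for GC content *Snord47* was below 0 (-0.33), whereas *Snora65* (1.22) and *Snord22* (0.80) were past 1.5-fold. *Snord104* had 146 and 142 reads (25.6 and 26.8 RPKM, log2 ratio 0.06, interval -0.28 to 0.41), and *Snora26*, within *2700023E23Rik* (current symbol *Dancr*), had 114 and 100 reads (log2 ratio -0.08, interval -0.49 to 0.32). When the libraries were scaled to the median entry, *Snora26* was above 0, as were *Snord87*, *Snord38a* and *Snora41*.

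Further snoRNAs with many reads were mostly lower, while *Snord12* and *Snora33* lay within 1.5-fold. *Snord12*, within *1500012F01Rik* (current symbol *Zfas1*), had 139 and 97 reads (log2 ratio -0.41). *Snord2* and *Snora81*, both within *Eif4a2*, which encodes a translation initiation factor, had 90 and 49 reads (-0.77) and 114 and 41 reads (-1.35). *Snord16a*, within *Rpl4*, had 126 and 41 reads (-1.50). *Snord32a* and *Snord34*, neighbours of *Snord33* within *Rpl13a*, had 99 and 48 reads (-0.93) and 106 and 40 reads (-1.29). *Snora33*, within *Rps12*, had 62 and 49 reads (-0.23, interval -0.81 to 0.33).

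The entries past 1.5-fold in the other direction were *Snord7*, *Snora75* and *Snord65*. *Snord7* had 13 reads (1.73 RPKM) in shLuc and 37 reads (5.30 RPKM) in shKdm5b cells (log2 ratio 1.56, interval 0.67 to 2.65), the only one whose interval cleared 1.5-fold. *Snora75*, within the nucleolin gene *Ncl*, had 18 and 32 reads (1.98 and 3.79 RPKM, log2 ratio 0.90, interval 0.06 to 1.85). *Snord65* had 34 and 50 reads (7.63 and 12.1 RPKM, log2 ratio 0.65, interval 0.00 to 1.33). *Snord99*, within *Snhg12*, was just short of the threshold with 49 and 63 reads (11.4 and 15.8 RPKM, log2 ratio 0.46, interval -0.09 to 1.04).

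The log2 ratio did not follow the length of the snoRNA entry (Spearman rho -0.00 over 79 entries). Nor did it follow RPKM (-0.01) or reads (0.01) in shLuc cells. Its rho with the summed reads of both libraries was 0.31, but that sum includes the shKdm5b reads, which also enter the ratio. Its rho with GC content was -0.27, and over 20327 entries of all kinds with a known GC content it was -0.47, so entries rich in G and C were lower in shKdm5b cells generally. The snoRNA sequences had a median GC content of 46.7% against 50.8% over all entries. After a GC correction 51 snoRNA entries were lower and 3 higher. The higher ones were then *Snord7* (1.79), *Snora65* (1.22) and *Snord22* (0.80), whereas *Snora75* (0.41) and *Snord65* (0.21) lay within 1.5-fold. All entries share the same pair of libraries, so these correlations describe the libraries.

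The entries that missed the minimum held few reads. The 24 entries had at most 8 reads in either library, 62 in all in shLuc and 25 in shKdm5b cells, with more reads in shLuc cells for 14 and more in shKdm5b cells for 3. 7 had 0 reads in both libraries, which allows up to 3 reads in each. Among these 7 were the 3 entries of *Snord116*, an imprinted snoRNA cluster known for its expression in neurons.

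Unlike the snoRNA entries, most *Snhg* and *Gas5* entries had more reads in shKdm5b cells. Of the 10 *Snhg* and *Gas5* entries, 7 were higher and 0 were lower by over 1.5-fold, with a median log2 ratio of 0.77, beside 14.6% higher and 31.3% lower over all entries. They had 12482 reads in shLuc and 16637 in shKdm5b cells. The entries of this set are short, with a median of 567 bases, and of other entries of 300 to under 500 bases 46.4% were higher. After a correction for GC content and length together, 1 of the 10 was higher and 1 was lower, the median was 0.09, and the values of *Snhg1* and *Snhg3* changed sign (-0.12 and -0.93). *Snhg7* had no GC value and was given that of the median entry in this correction. The choice by symbol leaves out noncoding hosts with other names. Of the 14 noncoding hosts assigned by position below, 11 were higher and 1 was lower. The lower one was *1810032O08Rik* (current symbol *Snhg16*, log2 ratio -1.38), which is outside the 10.

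*Snhg6*, which hosts *Snord87*, had the largest ratio, with 722 reads (22.7 RPKM) in shLuc and 1887 reads (63.8 RPKM) in shKdm5b cells, 2.81-fold higher (log2 ratio 1.49, interval 1.37 to 1.62). *Snhg1*, the host of *Snord22*, had 1399 and 2979 reads (37.6 and 86.1 RPKM), 2.29-fold higher (log2 ratio 1.19, interval 1.10 to 1.29). *Snhg12* had 867 and 1574 reads (18.3 and 35.7 RPKM), 1.95-fold higher (log2 ratio 0.96, interval 0.84 to 1.09). These 3 are short spliced RNAs with entries of 407, 476 and 606 bases.

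*Snhg8* had 1175 and 1910 reads (19.2 and 33.5 RPKM, log2 ratio 0.80, interval 0.70 to 0.91). *Snhg7* had 433 and 646 reads (7.48 and 12.0 RPKM, log2 ratio 0.67, interval 0.50 to 0.86). The entries with few reads were *Snhg10*, with 66 and 133 (log2 ratio 1.07, interval 0.68 to 1.56), and *Snhg9*, with 27 and 43 (log2 ratio 0.75, interval 0.05 to 1.53). *Snhg10* is thus past 1.5-fold within counting error and *Snhg9* is not.

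The other 3 lay within 1.5-fold. *Snhg3* had 1225 and 1577 reads (35.9 and 49.6 RPKM, log2 ratio 0.47, interval 0.36 to 0.58). *Gas5*, named for its accumulation in growth-arrested cells, had the most reads of the set, 4707 and 4265 (23.6 and 23.0 RPKM, log2 ratio -0.04, interval -0.10 to 0.02). *Snhg11*, with the longest entry (5864 bases), had 1861 and 1623 reads (4.06 and 3.81 RPKM, log2 ratio -0.09, interval -0.19 to 0.00). The log2 ratios of *Gas5* and *Snhg11* were above 0 (0.14 and 0.08) when the libraries were scaled to the median entry. The entry of *Gas5* has 2554 bases and may include introns, so its reads can also come from unspliced RNA. The long entry under the symbol *Snord123* had 288 and 184 reads (0.60 and 0.41 RPKM, log2 ratio -0.45).

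A host entry on the same strand was found for 75 of the 79 snoRNA entries, in 53 host genes. The hosts were mostly higher while the snoRNA entries in them were mostly lower. Of the 53 hosts, 31 were higher, 8 were lower and 14 lay between, with a median log2 ratio of 0.64, while 50 of the 75 snoRNA entries were lower and 3 higher. Over all entries 14.6% were higher and 31.3% lower, and among other entries of 300 to under 500 and of 500 to under 1000 bases, where many hosts fall, 46.4% and 36.2% were higher. The log2 ratio of the snoRNA was below that of its host for 66 and above it for 9, and the median of the difference was -1.55. After the correction for GC content and length the median difference was also -1.55. Adding length to the GC correction moved some snoRNA entries by little, such as *Snord52* (-3.13 to -2.98) and *Snora65* (1.22 to 0.98). Others moved further, such as *Snora74a* (-0.94 to -1.41) and *Snora23* (0.13 to -0.32). *Snhg6* moved from 1.20 to 0.17. Other entries under 300 bases had an uncorrected median of -1.21. The correction therefore cannot tell whether the difference from the host is separate from the values of short entries. The counting interval of the snoRNA lay below the host ratio for 55 and above it for 4. The ratios of both had a Spearman rho of 0.33 over the 75 pairs, of which several share a host. *Snord104*, *Snord89*, *Snora30* and *Snora74a* had no host entry in the tables.

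**Figure D4:**
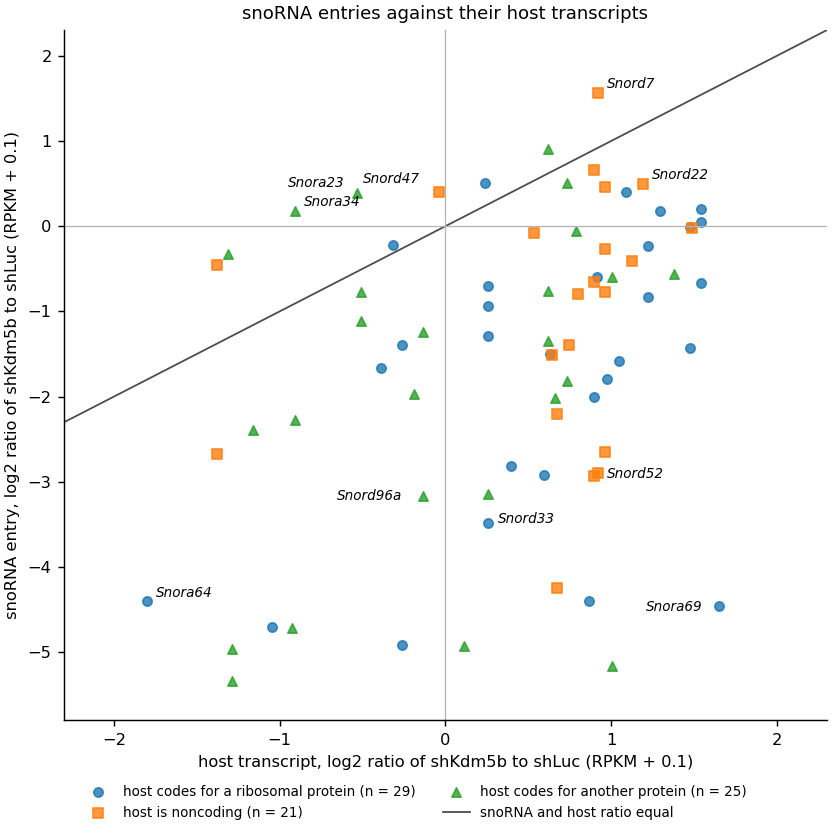
Each of 75 points is 1 snoRNA entry, with the log2 ratio of shKdm5b to shLuc of its host transcript on the horizontal axis and its own ratio on the vertical axis, both from RPKM + 0.1, and the symbol gives the kind of host. 66 points lie below the line of equal ratios, including snoRNAs of all 3 kinds of host.

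By kind of host, 29 snoRNA entries lay in 21 ribosomal protein genes, whose mRNAs encode the protein part of the ribosome. The counts by kind of host stand beside the same shares over all entries (31.3% lower and 14.6% higher) and over short entries. Of these 29, 21 were lower and 0 higher, whereas 13 of the 21 hosts were higher and 2 lower, and the median difference was -2.05. 21 snoRNA entries lay in 14 noncoding hosts, with 11 lower and 2 higher, against 11 hosts higher and 1 lower, and a median difference of -1.54. 25 entries lay in 18 other coding hosts, with 18 lower and 1 higher, against 7 hosts higher and 5 lower, and a median difference of -1.60. The 32 entries within an intron of a GENCODE transcript that overlap no exon had a median difference of -1.50, and the 41 that overlap an exon of at least 1 transcript had -1.73. *Snora17* and *Snora43* lay in no GENCODE host transcript and are in neither count.

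The level of a snoRNA entry beside its host also differed by kind of host. In shLuc cells the RPKM of the snoRNA entry was a median 3.75% of the host RPKM in ribosomal protein genes, 5.01% in other coding genes and 46.3% in noncoding hosts. In shKdm5b cells these medians were 0.839%, 0.891% and 11.7%. The highest in shLuc cells was *Snora78*, at 141% of *Snhg9* (29.5% in shKdm5b cells), and the highest in shKdm5b cells was *Snord47*, at 150.2% of *Gas5* (111% in shLuc cells). RPKM per entry does not separate reads of a mature snoRNA from reads of an unspliced host or of a host exon that crosses it, and the tables hold no coordinates with which to count the flanks.

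Some pairs show the difference within a single locus. *Snord33* was at -3.49 and *Rpl13a* at 0.26, with 25247 host reads in shLuc and 28105 in shKdm5b cells. *Snord52* was at -2.90 and *1110038B12Rik* at 0.92 (2710 and 4775 host reads). *Snord96a* was at -3.17 and *Gnb2l1* at -0.13 (103302 and 87546 host reads). Some hosts were lower too. *Rps2*, the host of *Snora64*, had 14441 and 3850 reads (log2 ratio -1.80), and *1810032O08Rik*, the host of *Snord1a*, had 680 and 240 reads (-1.38), with both snoRNAs below their host. The hosts of *Snord88a* and *Snord88c* (*2410002F23Rik*, -1.29), of *Snora62* (*Rpsa*, -1.05) and of *Snora5c* (*Tbrg4*, -0.93) were also lower. *Snora70* was at -2.81 and *Rpl10* at 0.40. *Snora69*, with 20 and 0 reads, lies in *Rpl39*, which had 4679 and 13650 reads (log2 ratio 1.65).

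The snoRNAs whose interval lay above the host ratio were *Snora65*, *Snord47*, *Snora23* and *Snora34*. *Snora65* was at 0.51 and *Rpl12* at 0.24 (14958 and 16421 reads). *Snord47* was at 0.40 and *Gas5* at -0.04. *Snora23*, with 30 and 37 reads (log2 ratio 0.39), lies in *Ipo7*, which encodes a nuclear import receptor and was at -0.54. *Snora34*, with 18 and 19 reads (0.17), lies in *2310037I24Rik* (current symbol *Kansl2*) at -0.91. *Snord22*, although higher in shKdm5b cells, was below its host *Snhg1* (0.49 against 1.19).

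16 hosts held more than 1 snoRNA entry, 38 entries in all. In 4 of these hosts, 2 snoRNAs of the same transcript had counting intervals that did not overlap. *Rpl13a* held *Snord33* at -3.49, *Snord34* at -1.29, *Snord32a* at -0.93 and *Snord35a* at -0.70 (115, 106, 99 and 72 reads in shLuc and 9, 40, 48 and 41 in shKdm5b cells). All 4 were thus lower, and *Snord33* stood apart from the rest. *Snhg12* held *Snora61* at -2.65, *Snora16a* at -0.77, *Snora44* at -0.27 and *Snord99* at 0.46, against 0.96 for the host. *2410006H16Rik* held *Snord49a* at -2.93 (36 and 4 reads), *Snord49b* at -0.65 (29 and 17 reads) and *Snord65* at 0.65, against 0.89 for the host. *Gnl3*, which encodes the nucleolar protein nucleostemin, held *Snord19* at -1.82 (20 and 5 reads) and *Snord69* at 0.51 (27 and 36 reads).

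**Figure D5:**
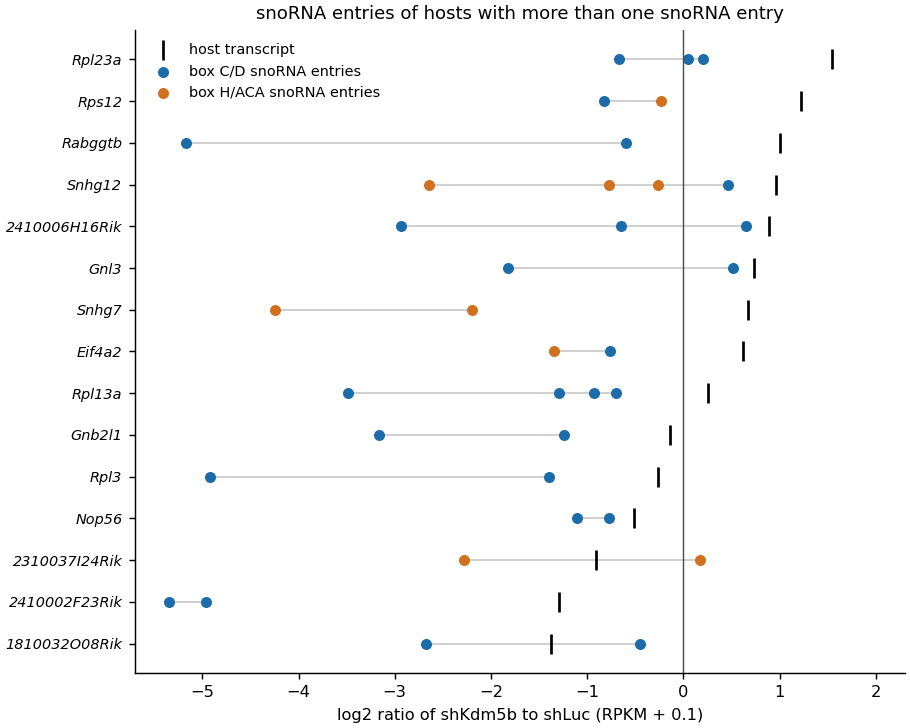
For 15 of the 16 hosts with more than 1 snoRNA entry, points give the log2 ratio of shKdm5b to shLuc (RPKM + 0.1, horizontal axis) of each box C/D (blue) and box H/ACA (orange) entry, and black ticks give the host transcript. The 36 entries spread widely within a host, as in *Snhg12* from -2.65 to 0.46, and in 13 hosts all snoRNA entries lie left of the host tick.

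In the other hosts the intervals overlapped, which does not show that the snoRNAs of a host had the same ratio. *Snord42a*, *Snord42b* and *Snord4a* of *Rpl23a* lay between -0.67 and 0.20, against 1.54 for the host. *Snord110* and *Snord57* of *Nop56*, which encodes a box C/D core protein, were at -0.77 and -1.11, against -0.51 for the host. *Snora17* and *Snora43* of *Snhg7* were at -4.25 (39 and 1 reads) and -2.20, against 0.67 for the host.

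The genes for proteins that build snoRNPs were mixed. Their lists were chosen with earlier results of these data known, and their counts stand beside 31.3% lower and 14.6% higher over all entries. Of the 4 box C/D core proteins, *Nop58* was higher (137.7 and 244 RPKM, log2 ratio 0.83), and *Fbl* (fibrillarin, -0.41), *Nop56* (-0.51) and *Nhp2l1* (-0.32) lay within 1.5-fold, so that the list median was -0.36. Of the 4 box H/ACA core proteins, *Dkc1* (dyskerin, 94.4 and 181 RPKM, 0.94) and *Nop10* (105 and 168 RPKM, 0.69) were higher and 0 were lower. Of 12 assembly factors, *Nufip1* (0.64) and *Znhit6* (0.72) were higher, and *Shq1*, a chaperone of dyskerin (-1.33), *Coil*, the coilin of Cajal bodies (18.8 and 9.34 RPKM), and *Tcof1* (-0.59) were lower, shares near those over all entries, with a list median of -0.36.

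Genes of ribosomal RNA synthesis and of RNA decay also lay on both sides. Of 10 genes for ribosomal RNA synthesis and processing, 5 were lower, among them the RNA polymerase I subunits *Polr1a* (20.5 and 6.65 RPKM, log2 ratio -1.61) and *Polr1b* (-1.60) and their activator *Ubtf* (-1.18), with *Nop2* (-1.08) and *Bop1* (-1.38). 2 were higher, *Npm1* (nucleophosmin, 900 and 1942 RPKM, 1.11) and *Ncl* (0.62). Of 8 factors of nonsense-mediated decay, *Upf1* (46.8 and 15.9 RPKM, log2 ratio -1.55), *Smg5* (-1.73) and *Smg6* (-1.02) were lower, and *Upf2* (0.77) and *Upf3b* (1.21) were higher. Of 13 genes of the RNA exosome and of trimming, *Exosc2*, *Exosc4*, *Exosc5* and *Exosc6* were lower (-1.10 to -0.68) and *Exosc3* and *Exosc8* were higher (0.65 and 0.95), again near the shares over all entries.

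Most other small RNAs of the nucleus and nucleolus had few reads. Of 9 *Scarna* entries, guide RNAs of Cajal bodies, 2 reached 10 reads: *Scarna13* with 30 and 5 reads (1.42 and 0.25 RPKM) and *Scarna10* with 2 and 10 (log2 ratio 2.15). *Terc*, the RNA of telomerase, which ends in a box H/ACA domain, had 30 and 4 reads (-2.16). *Rpph1*, the RNA of RNase P, had 142 and 56 reads (-1.21), and *Rmrp*, the RNA of RNase MRP, had 100 and 90 reads (-0.05). Of the 6 such entries with 10 or more reads besides *Scarna*, 4 were lower and 1 was higher. The higher entry was *Rnu11*, with 0 and 14 reads (4.23). The lower ones include *Rnu73a*, with 16 and 4 reads (-1.77), and *Rnu7*, whose entry spans 3034 bases and had 1200 and 713 reads (-0.63). Over all entries 31.3% were lower and 14.6% higher, and over other entries under 300 bases 62.5% and 26.4%.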

How the data were processed

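Polyadenylated RNA of shLuc and shKdm5b R1 ES cells was measured in 1 library each. The authors deposited, per RefSeq entry, an RPKM value, the entry length and a whole-number read count, with the aligned reads as separate files. The deposited read counts are not normalized, and the authors computed the RPKM values from them by entry length and library size. According to the submitters' processing notes, Bowtie 0.12.7, CASAVA 1.0 and build mm8 were used. For its ChIP-Seq reads the study states that those mapping to several genomic sites were dropped. For the RNA-Seq reads such a filter and the counting program are not given in the sources used here. The cDNA was double-stranded and carried no strand mark, so the reads of overlapping genes on opposite strands cannot be told apart, and snoRNAs with near-identical copies are uncertain.

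Entries were kept with 10 or more reads in either library. Log2 ratios used log2(RPKM + 0.1), so that changes of low entries are understated, and the threshold was 1.5-fold. Folds are ratios of RPKM without the 0.1. Intervals are exact Clopper-Pearson intervals at a level of 95% on the reads of both libraries. For folds of entries with a zero count, the zero was set to a floor of 3 reads and the other count was taken as exact. The steps were tested on simulated data. Named snoRNAs are the 15 with the most reads, and the 8 lowest and 8 highest log2 ratios among those with 50 or more reads. Other snoRNAs named in the text were chosen after their values were seen. The members and gene lists were chosen with earlier results of these data known. Hosts are the RefSeq genes (GRCm38) that span the snoRNA on the same strand, and for a gene with several entries the one with the highest mean RPKM was used. A lowess curve (fraction 0.3) over GC content, or over GC content and then length, was fitted on entries above 1 RPKM without the members. A further column of small whole numbers, whose meaning is not stated, was not used. 1 host gene is not reported here. Python 3.11.15, pandas 2.3.3, NumPy 2.4.6, SciPy 1.17.1, statsmodels 0.14.6 and matplotlib 3.10.9 were used.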

Additional observations from a re-analysis of the deposited data

How the results depend on the processing

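The counts and the median of the snoRNA entries and the median difference between snoRNA and host kept their direction under the alternatives run, whereas the counts of the *Snhg* and *Gas5* entries did not under the correction for GC content and length. The number of lower snoRNA entries was 20 of 30 with a minimum of 50 reads and 32 of 79 when the counting interval had to clear 1.5-fold, since fewer entries qualify by construction. It lay between 40 and 64 under the other settings. The number of higher snoRNA entries was 7 when the libraries were scaled to the median entry (a shift of -0.18 on the log2 scale of shKdm5b relative to shLuc was taken out), 1 with a minimum of 50 reads, 5 with a minimum of 1 read, 1 with a 2-fold threshold and 1 by the counting interval. The snoRNA median was -0.86 with a pseudocount of 1, -0.94 with median scaling, -1.32 with a minimum of 50 reads and -1.21 with a minimum of 1 read. In alternatives chosen after seeing the data, it was -0.79 with 10 reads required in the mean of both libraries, -0.88 with entries of at least 50 bases and -1.02 with *Snord123* included.

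The *Snhg* and *Gas5* entries with a higher level numbered 3 with a 2-fold threshold and 1 after the correction for GC content and length, under which 1 was lower. Their median was 0.70 with a pseudocount of 1, 0.95 with median scaling, 0.82 with scaling to the reads on entries, 0.84 after the GC correction and 0.089 after the correction for GC content and length, which was chosen after seeing the data. The cause was not tested. The median difference between snoRNA and host was -1.38 with a pseudocount of 1, -1.93 with a minimum of 50 reads, with a single host required or not, and -2.11 after the GC correction. No paired analysis was possible because shLuc and shKdm5b cells had a single library each, so no library could be left out either. Reads on the snoRNAs against their flanks were not counted, because the tables hold no entry coordinates in the build of the reads. Depth limits most single snoRNAs, with a median of 34 and 16 reads.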
